A study of Mus musculus with 16 samples.

Results

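Hepatokines are proteins that the liver secretes into blood and that act on other organs. The 9 hepatokine genes Fgf21, Gdf15, Igfbp1, Inhbe, Angptl4, Angptl8, Lect2, Fetub and Ahsg were taken by symbol from a table of 25719 mouse genes, and all 9 were present with 1 entry each. The set was chosen on the basis of the diet difference in WT mice, in which Fgf21 had been seen as the largest rise, so the diet difference in WT mice is given here as a description without a test. RNA of whole liver was sequenced from 16 mice, and each library carries the label of its own mouse. There were 4 WT mice (strain label C57BL6J) and 4 Klrk1-/- mice on normal chow diet (NCD), and 5 WT mice and 3 Klrk1-/- mice on the steatosis-steatohepatitis diet (SSD), a chow enriched in animal fat, fructose and cholesterol. The SSD was fed for 3 weeks, and the study's methods describe male mice aged 8 to 12 weeks. Klrk1 encodes NKG2D, an activating receptor of natural killer cells and innate-like T cells, and Klrk1-/- mice lack it in every cell. Whether WT and Klrk1-/- mice were littermates is not given in the sources used here.

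FGF21 is a fasting and nutrient stress hormone that signals through FGF receptors bound to the coreceptor beta-klotho (Klb), and in the liver its gene is a classical target of PPAR-alpha, the fatty acid sensor, and of ATF4, the transcription factor of the integrated stress response. GDF15 is a stress-induced member of the TGF-beta superfamily that lowers appetite through the receptor GFRAL of the hindbrain. IGFBP1 binds insulin-like growth factors and its gene is repressed by insulin; Inhbe encodes the beta E subunit of activin. ANGPTL4 and ANGPTL8 inhibit lipoprotein lipase in the fasted and the fed state respectively, LECT2 is a chemotactic protein tied to insulin resistance in muscle, and the fetuins AHSG and FETUB are abundant plasma glycoproteins of the cystatin superfamily.

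Values are normalized counts, the read count of a gene divided by 1 factor per library. Libraries held 19892025 to 28936707 reads on genes, and 3 reads were taken as the detection floor. The labels were checked on Klrk1: it was 20.1 to 71.1 in the WT livers and 0.966 to 8.71 in the Klrk1-/- livers, with every Klrk1-/- mouse below every WT mouse. Hepatocyte markers (7 of 8 in the table) summed to 2339100 to 2645300 on NCD and 1500800 to 1944500 on SSD in WT mice, and to 2243700 to 2992400 and 2045700 to 2200900 in Klrk1-/- mice. Of the markers of other tissues, 6 of 7 for pancreas and 4 of 5 each for skeletal muscle, kidney and adipocytes were at or under the floor in every mouse. The exceptions were Cela2a of pancreas (0.845 to 27.4), Mylpf of muscle (14.1 to 46.0), Lrp2 of kidney (2.41 to 57.4) and Cidec of adipocytes. SSD-fed WT mouse 1 stood apart: its 6 stellate cell markers summed to 15806, against 4731 to 7951 in the other SSD-fed WT mice, and its 6 recruited macrophage markers to 6886, against 2092 to 3281. Differences of the 9 members that use the SSD-fed WT mice are therefore given also without this mouse. In whole liver, fewer cells of a type and less RNA per cell cannot be told apart.

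The bases upstream of the transcription start were read for 8 of the 9 genes from RefSeq (build GRCm38.p6), Angptl4 having no entry in the table used. The 250-base windows of 5 genes called between groups in which searched letters were found are shown, because transcription factors bind there. They were searched on both strands for 5 sets of letters: TGATGNAA (amino acid response element core, the ATF4 site), CAAAACAA (insulin response sequence), the E-box CACGTG, the core promoter letters TATAAA, and the PPAR response element. The last was read as a direct repeat of AGGTCA with 1 free base between the copies. Capitals mark the matches, and each sequence runs 5′ to 3′ on the strand of its gene and ends at the base before the start.
Fgf21, chr7:45615491-45615740, minus strand: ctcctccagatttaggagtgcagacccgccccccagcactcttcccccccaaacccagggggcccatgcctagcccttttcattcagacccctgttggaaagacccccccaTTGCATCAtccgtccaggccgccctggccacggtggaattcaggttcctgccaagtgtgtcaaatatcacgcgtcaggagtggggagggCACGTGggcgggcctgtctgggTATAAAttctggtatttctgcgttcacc
Gdf15, chr8:70632096-70632345, minus strand: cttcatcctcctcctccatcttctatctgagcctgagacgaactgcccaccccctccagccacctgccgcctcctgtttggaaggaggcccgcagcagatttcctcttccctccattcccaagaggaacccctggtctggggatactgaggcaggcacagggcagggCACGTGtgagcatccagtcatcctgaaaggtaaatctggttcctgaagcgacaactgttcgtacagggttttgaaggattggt
Inhbe, chr10:127351849-127352098, minus strand: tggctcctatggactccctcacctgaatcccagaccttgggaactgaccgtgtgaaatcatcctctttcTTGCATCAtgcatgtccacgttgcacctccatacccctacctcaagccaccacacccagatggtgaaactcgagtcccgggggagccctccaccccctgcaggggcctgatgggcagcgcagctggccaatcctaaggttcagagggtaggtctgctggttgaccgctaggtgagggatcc
Angptl8, chr9:21835260-21835509, plus strand: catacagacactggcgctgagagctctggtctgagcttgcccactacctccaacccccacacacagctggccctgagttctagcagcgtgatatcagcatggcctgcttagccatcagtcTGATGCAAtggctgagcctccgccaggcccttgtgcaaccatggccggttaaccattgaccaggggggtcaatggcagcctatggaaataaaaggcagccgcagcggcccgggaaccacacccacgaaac
Igfbp1, chr11:7197537-7197786, plus strand: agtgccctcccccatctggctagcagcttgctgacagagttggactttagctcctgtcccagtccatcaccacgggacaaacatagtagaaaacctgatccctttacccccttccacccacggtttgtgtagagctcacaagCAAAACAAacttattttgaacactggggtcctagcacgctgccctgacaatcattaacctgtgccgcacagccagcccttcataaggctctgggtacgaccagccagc

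The ATF4 core letters stood in the windows of Fgf21 (139 to 132 bases before the start), Inhbe (181 to 174) and Angptl8 (130 to 123), and in 3.45% of 32851 mouse windows of this length. Fgf21 also held an E-box 50 to 45 bases before its start, as did this window of Gdf15 at 83 to 78 bases (6.02% of all windows), and the core promoter letters (12.4%), which the first window of Fetub shared. Gdf15 and Fetub each had another window (chr8:70632457-70632706 and chr16:22919972-22920221), in which no searched letters were found. The insulin response letters stood 108 to 101 bases before the start of Igfbp1 (2.21% of windows). The PPAR response element was in no member's window and in 0.0335% of all windows. A match is a run of letters and no evidence of binding.

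On the GRCm39 assembly of the counted table the genes lie apart, except for the neighbouring fetuins: Fgf21 at chr7:45263310-45264914, Gdf15 at chr8:71082043-71085106, Igfbp1 at chr11:7147782-7152546, Inhbe at chr10:127184726-127190280, Angptl4 at chr17:33992724-34000804, Angptl8 at chr9:21746806-21748643, Lect2 at chr13:56690277-56696315, Fetub at chr16:22737084-22758528 and Ahsg at chr16:22710027-22718199. Angptl8 sits inside Dock6 on the opposite strand with no Angptl8 exon touching a Dock6 exon (Dock6 averaged 889 normalized counts). Exons of Gdf15, Inhbe, Fetub and Ahsg are touched by predicted genes of the opposite strand (Gm34154 for Gdf15, Gm66251 for Inhbe, Gm30611 for Fetub, Gm60715 and Gm30505 for Ahsg) that the counted table does not hold. Whether counting used the strand is not given in the sources used here, so for these 5 members reads of the opposite strand cannot be told apart.

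Levels set per kilobase of gene length spanned more than the diet effects did. In NCD-fed WT livers the order was Ahsg (197930 ± 11325 normalized counts per kilobase, SD, n = 4), Fetub (13262 ± 1403), Lect2 (2633 ± 196), Igfbp1 (1630 ± 497), Angptl4 (1468 ± 390), Angptl8 (752 ± 111), Inhbe (141 ± 25.0), Gdf15 (59.4 ± 19.2) and Fgf21 (9.54 ± 5.31). Of these neighbours, Igfbp1 and Angptl4 overlapped between mice and the others did not. In SSD-fed WT livers Fgf21 stood sixth at 1671 ± 567 per kilobase (n = 5), above Angptl8, Gdf15 and Inhbe, but from Angptl4 downwards every gene overlapped the next. In SSD-fed Klrk1-/- livers Fgf21 was sixth too (1072 ± 122, n = 3), overlapping Igfbp1 below it and apart from Angptl8 above it.

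**Figure D1:**
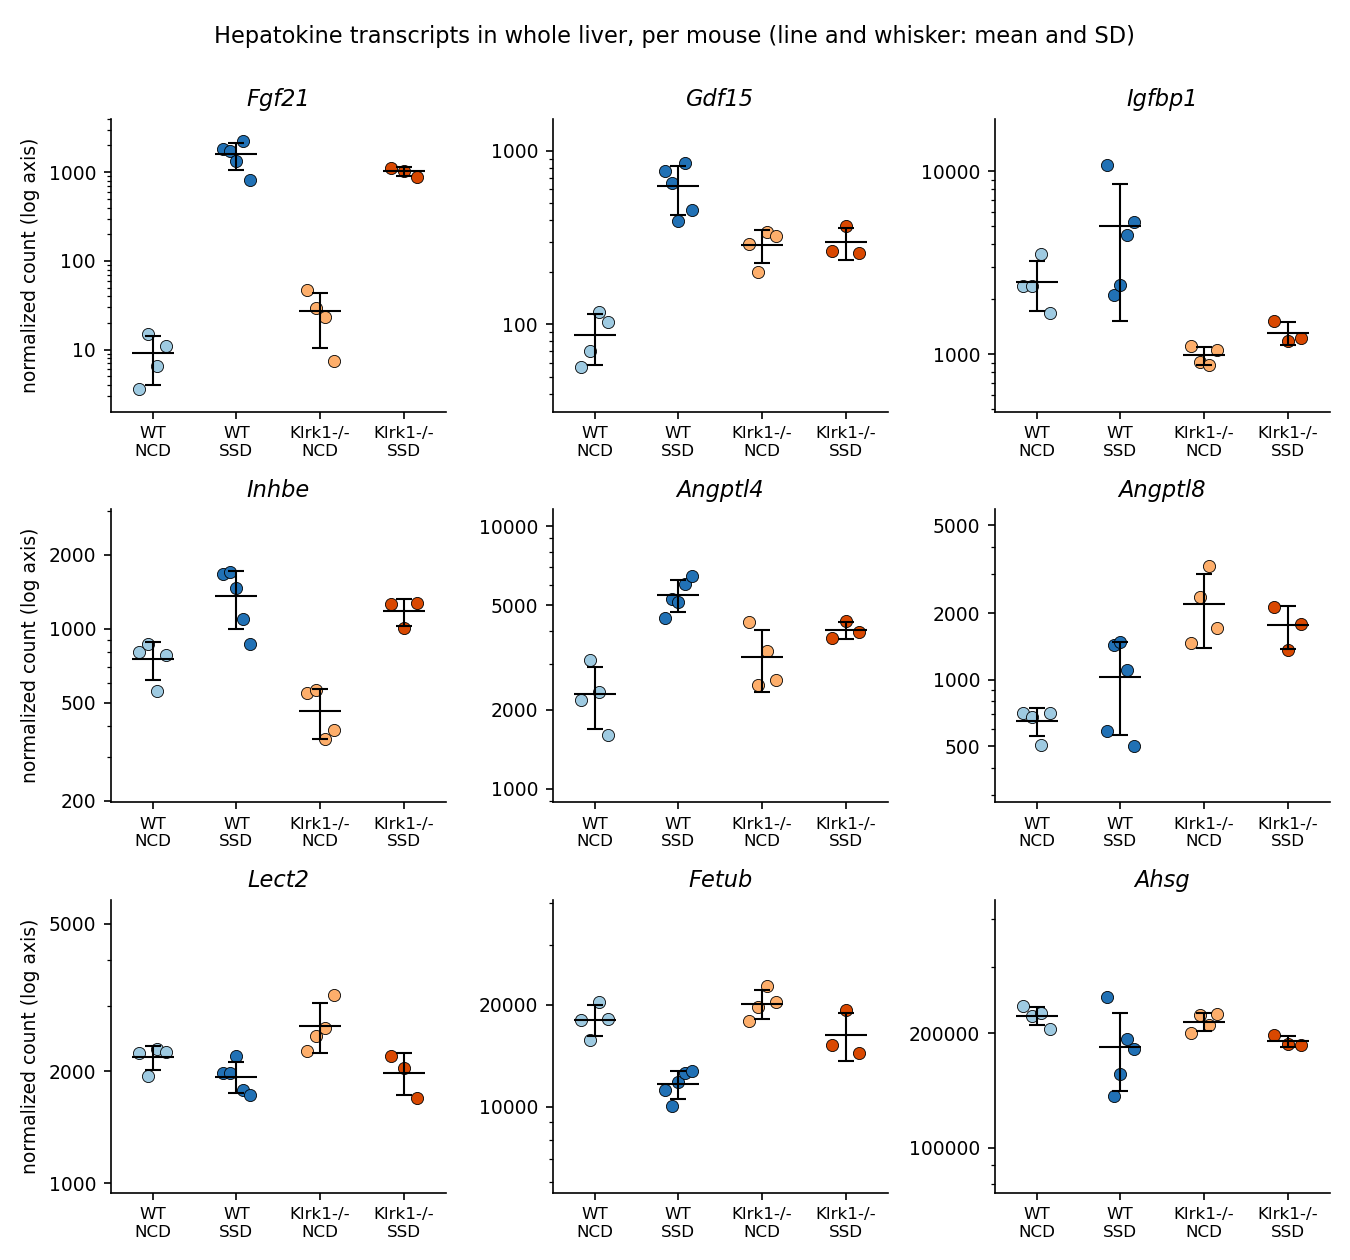
Normalized counts (log axis, range set per gene) of the 9 hepatokine genes in whole liver, 1 point a mouse, by genotype and diet (4 WT NCD, 5 WT SSD, 4 Klrk1-/- NCD, 3 Klrk1-/- SSD); line and whisker give the mean and SD. Fgf21 lay at 3.62 to 47.1 in all NCD-fed mice and at 814 to 2224 in all SSD-fed mice, whereas Gdf15 of Klrk1-/- mice lay between 200 and 369 on both diets.

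The diet comparison in Klrk1-/- mice asked how the SSD altered hepatokine transcripts when NKG2D is missing, in mice that the choice of Fgf21 had not used. Fgf21, Inhbe and Igfbp1 rose and Lect2 fell, whereas the difference in Gdf15 was near 0. Thus 3 of the 9 genes were called higher and 1 lower by limma at a Benjamini-Hochberg adjusted p under 0.05, beside 13.4% and 16% of all 12904 genes tested (29.4% in all). At an unadjusted p under 0.05 there were 6 members, beside 41.4% of all genes. The groups did not overlap for 5 members, as for 37.6% of all genes.

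On NCD, the genotypes were compared without the dietary load. Whether differences between the mouse lines other than Klrk1 play a part was not tested. Gdf15 and Angptl8 were each over 3-fold higher in Klrk1-/- livers, and Igfbp1 and Inhbe were lower. These are 2 higher and 2 lower calls of 9, beside 6.41% and 6.66% of 12845 genes (13.1% in all). At an unadjusted p under 0.05 there were 7 members, beside 31% of all genes, and 3 members did not overlap, as against 19.3% of all genes.

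On SSD, 0 of the 9 members passed in limma, beside 2.9% of 13116 genes. At an unadjusted p under 0.05 there were 5 (22.9% of all genes), edgeR's quasi-likelihood test called 0, and DESeq2 called 4 members and 1221 of the 13116 genes. Gdf15, Igfbp1 and Angptl4 were lower and Fetub higher in every Klrk1-/- mouse than in any WT mouse, so 4 members did not overlap, as did 17.9% of all genes. Without WT mouse 1, Gdf15, Igfbp1 and Angptl4 passed (adjusted p in limma 0.0454, 0.0219 and 0.0155), without WT mouse 5 Fgf21 and Gdf15 did (0.0317 and 0.0375), and without WT mouse 3 Gdf15 alone (0.0388). The differences of the other members without WT mouse 1 were -0.49 for Fgf21, -0.09 for Inhbe, 0.73 for Angptl8, 0.46 for Fetub, 0.04 for Lect2 and 0.20 for Ahsg, none of them past the threshold.

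The interaction, which is the diet effect of Klrk1-/- mice minus that of WT mice, contains the WT diet effect, on which the members were chosen, so that a negative sign is favoured for a member picked for its rise in WT mice. It is therefore given for the members as a description without a test, from -2.77 for Gdf15 to 0.54 for Inhbe (-2.69 and 0.62 without SSD-fed WT mouse 1). In addition, the comparisons between genotypes share their mice with those between diets and are not independent of them. They use the WT values on which the members were chosen. For a member picked for its rise in WT mice, a higher Klrk1-/- value on NCD and a lower one on SSD are therefore favoured. Their p-values and calls are not independent of that choice. In WT mice the diet moved 34.9% of 13091 genes past the threshold, and 5 members (Fgf21, Gdf15, Inhbe, Angptl4 and Fetub) did not overlap between diets, beside 29% of all genes. This last count describes the contrast that the choice of members used. Without WT mouse 1 the WT diet differences were 7.30 for Fgf21, 2.74 for Gdf15, 0.46 for Igfbp1, 0.75 for Inhbe, 1.35 for Angptl4, 0.70 for Angptl8, -0.19 for Lect2, -0.62 for Fetub and -0.43 for Ahsg, and that of Igfbp1 was 0.80 with it.

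**Figure D2:**
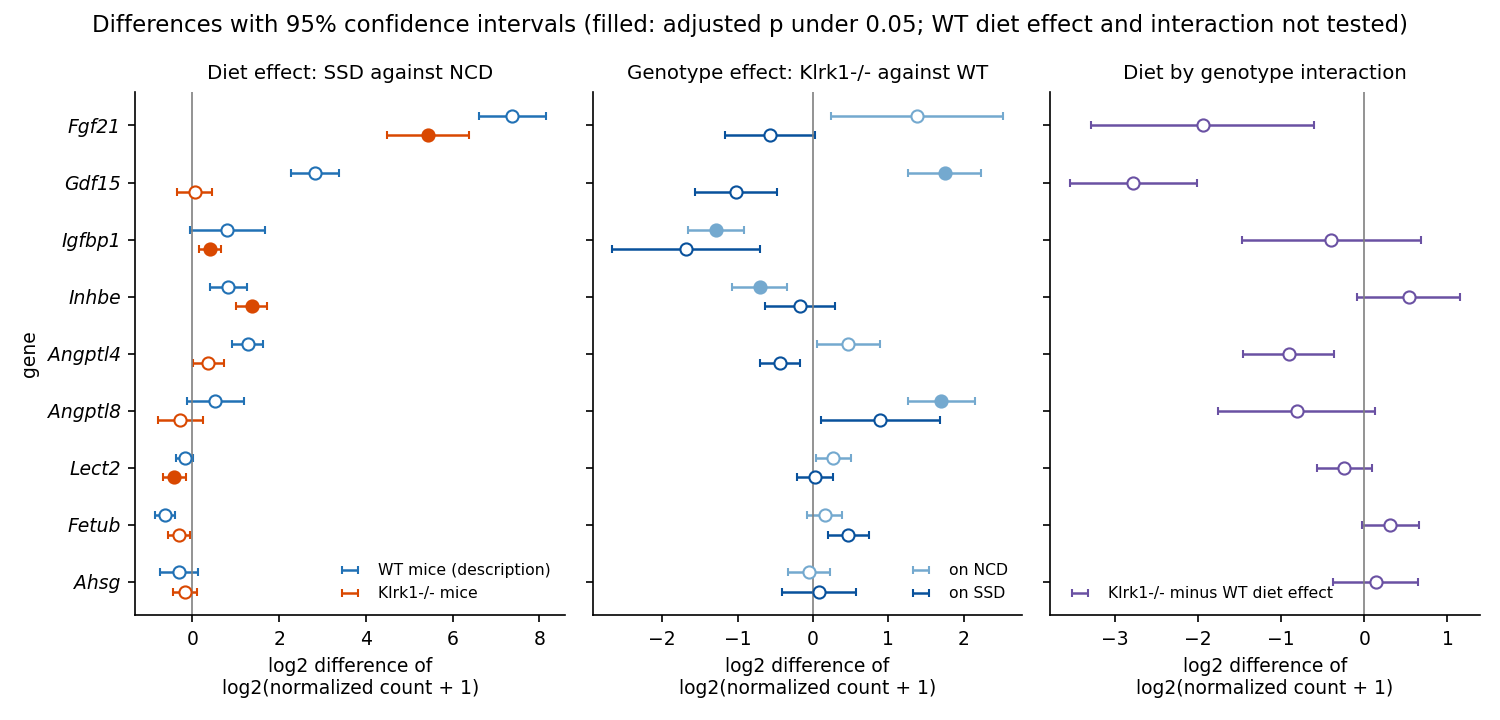
Differences of the mean log2(normalized count + 1) for each hepatokine gene with 95% confidence intervals from limma, for diet (left), genotype (middle) and their interaction (right); filled points have an adjusted p under 0.05, and the WT diet effect and the interaction are shown as descriptions without a call. Fgf21 has the largest diet differences in both genotypes, and Gdf15 has the interaction farthest from 0, at -2.77.

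Fgf21 read 3.62, 15.1, 6.52 and 11.03 normalized counts in the NCD-fed WT mice, the lowest of them at the floor of 3 reads, and 1847, 1737, 1321, 2224 and 814 in the SSD-fed WT mice. In Klrk1-/- mice it read 47.1, 29.9, 23.6 and 7.38 on NCD and 1123, 1040 and 894 on SSD. The diets were far apart in both genotypes. The rise in Klrk1-/- mice was 5.43 on the log2 scale (SE 0.43; limma, Benjamini-Hochberg adjusted p = 4.47e-06; exact two-sided permutation p = 0.0286, the smallest that 3 against 4 mice can give), from a mean of 27.0 ± 16.4 (SD, n = 4) to 1019 ± 116 (n = 3). It passed under all 18 alternatives, between 4.92 and 5.78. In WT mice the difference was 7.38 (SE 0.35), and over 20 alternatives it ran from 6.35, with a pseudocount of 10, to 7.69.

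The genotypes differed less in Fgf21, and their order turned with the diet. On NCD, 3 of 4 Klrk1-/- mice were above every WT mouse, a difference of 1.38 (95% confidence interval 0.23 to 2.52) that did not pass in limma (adjusted p = 0.0988) but did in 4 of 18 alternatives: in DESeq2 (0.0264), with all 4 groups in 1 limma fit (1.38, 0.0435), without Klrk1-/- mouse 4 (1.87, 0.0248) and with a block for the replicate number (2.01, 0.0237). On SSD the Klrk1-/- mice were lower by 0.57 (interval -1.16 to 0.03, limma adjusted p = 0.241), passing without WT mouse 5 (-0.79, 0.0317) and with a block for the replicate number (-0.67, 0.0202). The interaction of -1.94 (SE 0.64) subtracts the WT rise by which Fgf21 was chosen and is given without a test; it was -1.87 without SSD-fed WT mouse 1 and -2.44 without NCD-fed Klrk1-/- mouse 4. A WT baseline of 3 to 15 reads underlies these values. On NCD the WT mean was 9.07, and Fgf21 reached the mean of 10 needed for a test only through the Klrk1-/- mice (27.0). The alternatives that passed on NCD are therefore given as values, and no call is drawn from them.

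Gdf15 showed another pattern. It read 56.7, 70.5, 117 and 103 in NCD-fed WT mice and 761, 656, 397, 851 and 454 in SSD-fed WT mice. In Klrk1-/- mice it read 290, 200, 340 and 322 on NCD and 267, 369 and 256 on SSD. The Klrk1-/- livers of both diets thus lay between the WT diets: above every NCD-fed WT mouse and below every SSD-fed WT mouse.

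In Klrk1-/- mice the diet difference of Gdf15 was 0.05 (95% confidence interval -0.35 to 0.46; adjusted p in limma 0.853), while in WT mice it was 2.83 (SE 0.26). The value near 0 depends on the scaling, since equal totals took the median of all genes between diets in Klrk1-/- mice from -0.002 to 0.253. The interaction, which subtracts the WT difference, was -2.77 (SE 0.37), between -2.94 and -2.59 over 26 alternatives and -2.69 without SSD-fed WT mouse 1. On NCD the Klrk1-/- mice were higher by 1.75 (SE 0.23; 287.9 ± 62.0 against 86.8 ± 28.0; limma adjusted p = 0.000773; exact permutation p = 0.0286). On SSD they were lower by 1.03 (SE 0.25; 297.1 ± 62.1 against 623.6 ± 194.8), which missed the threshold in limma (adjusted p = 0.0560; exact permutation p = 0.0357), with an adjusted p of 0.00100 to 0.205 over 19 alternatives, under 0.05 in 7 of them, and was -0.94 without WT mouse 1. Both genotype differences lie in the direction favoured for a member picked for its rise in WT mice, and their p-values are not independent of that choice.

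**Figure D3:**
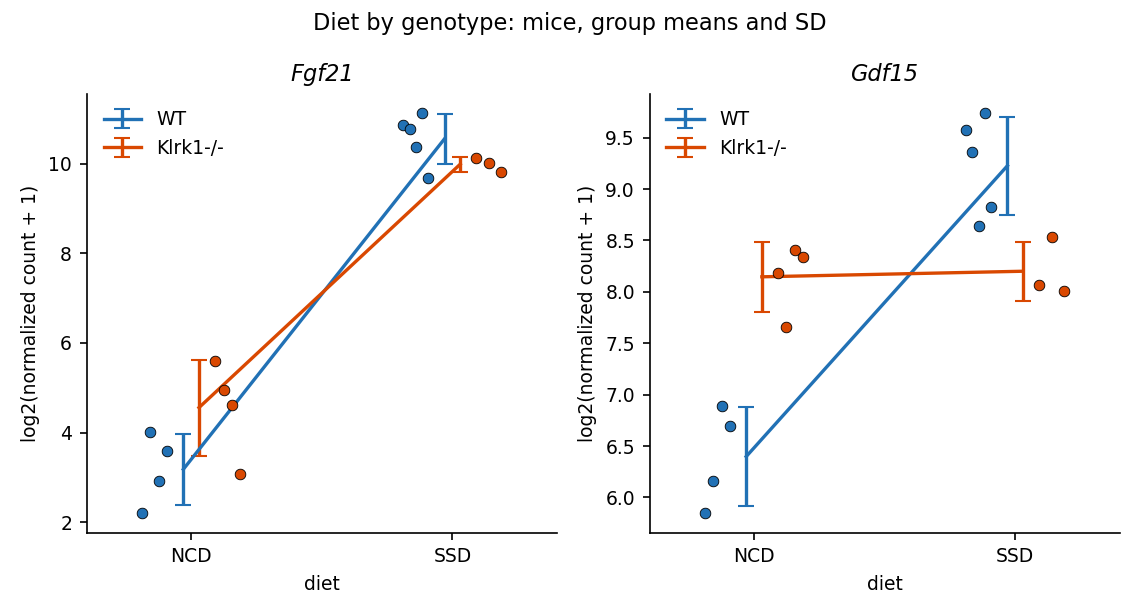
Fgf21 and Gdf15 as log2(normalized count + 1) by diet and genotype, 1 point a mouse, with lines joining group means and bars of 1 SD. Both Fgf21 lines climb, by 7.38 in WT and 5.43 in Klrk1-/- mice, whereas the Gdf15 line of Klrk1-/- mice differs by 0.05 between diets and that of WT mice by 2.83.

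Igfbp1 was lower in Klrk1-/- than in WT mice on NCD. It read 2372, 2362, 3517 and 1692 in NCD-fed WT mice and 1110, 910, 877 and 1053 in NCD-fed Klrk1-/- mice. The fall was 1.29 (log2 difference -1.29, SE 0.17; limma adjusted p = 0.000957; exact permutation p = 0.0286) and passed under all 19 alternatives. On SSD the WT mice spread 5.11-fold, at 10772, 2108, 2403, 4466 and 5301, and the Klrk1-/- mice read 1527, 1182 and 1225. The difference of -1.68 (SE 0.44, limma adjusted p = 0.0688) became -1.34 without WT mouse 1, the highest of them, and passed there (0.0219). It also passed in DESeq2 (-1.93, adjusted p = 0.0123) and with all 4 groups in 1 limma fit (adjusted p = 0.0117).

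Between diets, Igfbp1 of Klrk1-/- mice rose by 0.41 (SE 0.11, limma adjusted p = 0.0200; exact permutation p = 0.0571), a rise that lost its call with all 4 groups in 1 limma fit (0.41, SE 0.38, adjusted p = 0.475), and without NCD-fed mouse 2 (0.37, adjusted p = 0.0539) or SSD-fed mouse 1 (0.29, adjusted p = 0.108). In WT mice the difference was 0.80 (SE 0.40), with the diets overlapping.

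Inhbe read 546, 561, 354 and 386 in NCD-fed and 1254, 1002 and 1269 in SSD-fed Klrk1-/- mice. It rose by 1.37 (SE 0.16, limma adjusted p = 9.88e-05; exact permutation p = 0.0286), and this passed under all 18 alternatives. The WT mice read 800, 862, 557 and 779 on NCD and 1665, 1696, 1465, 1096 and 868 on SSD, a difference of 0.83 (SE 0.20) in which the lowest SSD-fed mouse lay just above the highest NCD-fed mouse. On NCD, Klrk1-/- mice were lower by 0.71 (log2 difference -0.71, SE 0.17, limma adjusted p = 0.0197). That call was lost without Klrk1-/- mouse 3 (-0.59, adjusted p = 0.0565), WT mouse 1 (-0.67, 0.0534) or WT mouse 2 (-0.63, 0.0609). On SSD the genotypes overlapped (-0.17, interval -0.64 to 0.29).

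Of the lipase inhibitors, Angptl8 differed with genotype. In NCD-fed mice it read 709, 676, 508 and 708 in WT and 1468, 2362, 3283 and 1718 in Klrk1-/- livers, with no overlap. It was higher by 1.70 in Klrk1-/- livers (SE 0.21, limma adjusted p = 0.000510; exact permutation p = 0.0286), under all 19 alternatives. On SSD, WT mice read 586, 1437, 1490, 1112 and 503 and Klrk1-/- mice 2138, 1360 and 1785, a difference of 0.89 (interval 0.11 to 1.68) that did not pass (limma adjusted p = 0.176). The diet difference in Klrk1-/- mice was -0.28 (interval -0.79 to 0.23).

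Angptl4 read 2186, 3088, 2346 and 1599 in NCD-fed WT mice and 4481, 5305, 5136, 6006 and 6457 in SSD-fed WT mice, 1.28 higher (SE 0.17). The Klrk1-/- mice read 4332, 2492, 3338 and 2603 on NCD and 3748, 4360 and 3950 on SSD. Here the diets overlapped, and the difference of 0.37 (interval 0.01 to 0.72) missed the threshold (limma adjusted p = 0.110), passing without NCD-fed mouse 1 (0.53, adjusted p = 0.00893) and with equal totals (0.62, 0.00962). The interaction, likewise a description, was -0.91 (SE 0.26), and -0.98 without SSD-fed WT mouse 1. On SSD every Klrk1-/- mouse was below every WT mouse (-0.44, SE 0.12, limma adjusted p = 0.0762), a difference that passed with equal totals (-0.55, adjusted p = 0.0254), with quantile normalization (-0.53, 0.0351), in DESeq2 (0.0147) and without WT mouse 1 (-0.51, 0.0155).

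Lect2 kept within 1696 to 3220 in all 16 mice. Klrk1-/- mice read 2277, 2491, 2612 and 3220 on NCD and 2200, 2049 and 1696 on SSD, a fall of 0.42 (log2 difference -0.42, SE 0.12, limma adjusted p = 0.0251; exact permutation p = 0.0571). The call was lost without NCD-fed mouse 4 (-0.32, adjusted p = 0.0552) or SSD-fed mouse 3 (-0.31, 0.117), with equal totals (-0.16, 0.262), with quantile normalization (-0.33, 0.0560) and with a block for the replicate number (-0.32, 0.0745). In WT mice the difference was -0.18 (SE 0.09) and turned to 0.17 with equal totals.

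The fetuins were the most abundant members. Fetub read 17997, 15741, 20424 and 18193 in NCD-fed and 11232, 10031, 11818, 12592 and 12748 in SSD-fed WT mice, a difference of -0.63 (SE 0.11) without overlap, which came to -0.28 with equal totals and -0.25 with quantile normalization. In Klrk1-/- mice it read 17868, 19712, 22676 and 20329 on NCD and 15173, 19290 and 14371 on SSD, a difference of -0.31 (interval -0.57 to -0.06) that did not pass (limma adjusted p = 0.0652) but did without SSD-fed mouse 2 (-0.44, adjusted p = 0.0129) and in DESeq2 (-0.30, 0.0471). The size of this fall depends on the scaling, since equal totals took the median of all genes here from -0.002 to 0.253. All 3 SSD-fed Klrk1-/- mice were above all 5 SSD-fed WT mice (0.47, SE 0.12, limma adjusted p = 0.0688; exact permutation p = 0.0179, the smallest possible), which passed in DESeq2 (0.48, adjusted p = 0.00536) and with all 4 groups in 1 limma fit (0.47, 0.0237). The summed hepatocyte markers, of which Alb is the largest, followed the same order of groups, lowest in SSD-fed WT mice. Single markers did not all follow it. Apob read 63764 to 76491 in SSD-fed WT mice and 49559 to 59467 in NCD-fed Klrk1-/- mice, and Hnf4a overlapped between these groups (8758.5 to 13070 and 10522 to 12725). The part of the hepatocyte markers in these values was not tested.

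Ahsg ran from 136764 to 250210, and its extremes were both SSD-fed WT mice (numbers 2 and 1). The diet difference in Klrk1-/- mice was -0.17 (interval -0.44 to 0.10) and turned to 0.09 with equal totals and to 0.53 with quantile normalization, and in WT mice it was -0.31 (SE 0.20) and turned to 0.04 and 0.09. With equal totals the median of all genes was 0.342 between diets in WT mice, 0.253 in Klrk1-/- mice and -0.115 between genotypes on SSD. In the fits reported these medians were -0.002, -0.002 and -0.001. Against these shifts, the direction of Ahsg between diets cannot be given.

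The receptors and partners of these hormones were read from the same fits. Of 5 FGF21 receptor genes, Klb rose in SSD-fed Klrk1-/- mice (0.51, SE 0.15, adjusted p = 0.0231 in limma, under 0.05 in 13 of 18 alternatives) and Fgfr1 fell (-0.63, adjusted p = 0.0188), a call lost with equal totals (-0.37, 0.106). In this comparison 13.4% of all genes were called higher and 16% lower. Over all settings 0 to 3 receptor genes were higher and 0 to 1 lower. Between the diets of WT mice Fgfr1 differed by -0.68 (-0.34 with equal totals) and Klb by -0.05. Fgfr4, the main hepatocyte FGF receptor, averaged 1053 to 1177 in the 4 groups and was called in no comparison. Fgfr3 was higher in Klrk1-/- livers on NCD (0.60, limma adjusted p = 0.0283, under 0.05 in 14 of 19 alternatives) and on SSD (0.65, adjusted p = 0.0121, in 16 of 19). Of all genes, 6.41% were called higher between genotypes on NCD and 1.22% on SSD. Among 12 genes of the GDF15 receptor and activin branch, 7 or 8 were high enough to test, and 3 of 7 were higher and 0 lower with SSD in Klrk1-/- mice, beside 13.4% and 16% of all genes. Across settings, 0 to 3 of this list were higher and 0 lower. Inhbb, another activin subunit, rose with SSD in Klrk1-/- mice by 1.31 (limma adjusted p = 0.0147) with a difference of 2.69 in WT mice, and Inhbc, the neighbour subunit of Inhbe, rose by 0.27 in Klrk1-/- mice (0.0476), a call kept in 11 of 18 alternatives. Acvr2a, an activin receptor, rose by 0.34 in Klrk1-/- mice (SE 0.09, limma adjusted p = 0.0153, under 0.05 in 17 of 18 alternatives). Inhba, the activin A subunit, was lower in Klrk1-/- livers on NCD (log2 difference -0.85, SE 0.18, limma adjusted p = 0.0113, under 0.05 in all 19 alternatives), and its difference between the diets of WT mice was -0.56.

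The IGF axis around Igfbp1 had 2 genes higher and 4 lower of 11 tested between diets in Klrk1-/- mice, beside 13.4% and 16% of all genes, with a median of -0.15 beside -0.00 over all genes. With equal totals the split turned to 4 higher and 2 lower and the median to 0.10, so the list has no direction that holds across scalings. The calls of Igf1, Igfals and Igfbp2 held under all 18 alternatives. Igf1 fell by 0.81 and Igfals, which stabilizes circulating IGF1, fell by 1.01, whereas Igfbp2 rose by 0.92 (limma adjusted p = 0.000393, 0.000294 and 0.000519). The differences of WT mice were -0.84 for Igf1 and -1.54 for Igfals. Lpl, the lipase that ANGPTL4 and ANGPTL8 inhibit, rose with SSD in Klrk1-/- mice by 0.73 (SE 0.11, limma adjusted p = 0.000400, under 0.05 in 17 of 18 alternatives). On NCD Lpl was 0.62 higher and Lipg 0.90 lower (log2 difference -0.90) in Klrk1-/- than in WT livers (limma adjusted p = 0.0234 and 0.0332), with calls in 14 and 13 of 19 alternatives. Kng1, a cystatin relative next to the fetuins, fell by 0.50 in SSD-fed Klrk1-/- mice (limma adjusted p = 0.00723), a call lost with equal totals (-0.24, 0.0685), and its difference in WT mice was -0.70.

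Of 18 other hepatokines, 17 could be tested between diets, and in Klrk1-/- mice 3 were higher and 7 lower (median -0.09), beside 13.4% and 16% of all genes. With equal totals the split was 7 and 6 and the median 0.16, so the list has no direction that holds across scalings. By limma, Tsku rose (1.34, adjusted p = 0.00672) and Manf fell (-1.26, 0.00188). Gpnmb, which is also on the recruited macrophage list, differed most, by 2.63, and is among the 3 counted higher. It averaged 4.56 on NCD and 34.3 on SSD. Gpnmb thus reached the mean of 10 needed for a test only through the SSD-fed mice, and its value is given as a description. Between genotypes on NCD, 1 of 16 was higher and 3 lower in Klrk1-/- livers, beside 6.41% and 6.66% of all genes. On SSD 2 of 17 were higher and 0 lower, beside 1.22% and 1.68%. Angptl6 was higher on both diets (0.45 and 0.82, limma adjusted p = 0.0160 and 0.0240), in 19 and 15 of 19 alternatives. Tsku (-1.33, 0.00391) and Manf (-0.75, 0.0287) were lower on NCD. Enho, which encodes adropin, fell by 0.60 with SSD in Klrk1-/- mice, and the difference in WT mice was -2.23. In Klrk1-/- livers Enho was lower on NCD (-0.44, limma adjusted p = 0.0485, under 0.05 in 11 of 19 alternatives). On SSD it was higher (1.18, limma adjusted p = 0.0398, in 13 of 19). The interaction of Enho, a description here like that of the members, was 1.63 (SE 0.30) and 1.51 without SSD-fed WT mouse 1. Enho was named for this value, and the median interaction of the list was 0.04, with 11 of 17 above 0.

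The known regulators of Fgf21 and Gdf15 were examined through lists of their other target genes. Of 20 PPAR-alpha targets, 16 were higher and 0 lower with SSD in Klrk1-/- mice (median 0.94), beside 13.4% and 16% of all genes. In WT mice, where the list is only described, its median was 1.13. Cyp4a14, a fatty acid omega-hydroxylase, led both, by 5.35 in Klrk1-/- mice (SE 0.41, limma adjusted p = 3.06e-06) and 6.23 in WT mice (SE 0.45). Between genotypes on SSD 0 of 20 passed in limma (median 0.09), beside 2.9% of all genes, a share near which 0 calls say little about the list. Without WT mouse 1 there was 1 lower (median 0.02), and over all settings 0 to 2 were lower. The interaction of Acot2, a mitochondrial acyl-CoA thioesterase, was -1.62 (SE 0.32), and -1.51 without SSD-fed WT mouse 1. Acot2 was named for this value and does not stand for the list, whose median interaction was -0.03, with 9 of 20 above 0. On NCD, 3 were higher and 1 lower in Klrk1-/- livers, beside 6.41% and 6.66% of all genes, and 0 to 4 were higher and 0 to 2 lower over all settings, with Cyp4a14 at 1.67 (adjusted p = 0.0352), Acot2 at 1.03 (0.0183) and Cyp4a32 at 0.83 (0.0328).

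The 20 ATF4 targets had 19 testable genes between diets. In Klrk1-/- mice 11 were higher and 2 lower (median 0.84), beside 13.4% and 16% of all genes, led by the serine synthesis enzymes Psat1 (3.88) and Phgdh (3.77) and by the stress protein Nupr1 (3.01), while Ddit4, an inhibitor of mTORC1, fell by 1.97 and Cth, an enzyme of cysteine synthesis, by 0.78. Phgdh averaged 5.89 on NCD in Klrk1-/- mice and reached the mean of 10 needed for a test only through the SSD-fed mice. The median of the list was 1.32 in WT mice.

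Between genotypes on SSD, 0 ATF4 targets were higher and 4 of 20 lower in Klrk1-/- mice, beside 1.22% and 1.68% of all genes: Atf3 (-2.82, SE 0.35), Phgdh (-1.55, SE 0.29, called in 14 of 19 alternatives), Chac1 (-1.53, SE 0.19) and Cebpb (-0.83, SE 0.15), with limma adjusted p of 0.00497, 0.0256, 0.00547 and 0.0213. The median of the list was -0.60. Leaving out WT mouse 1 gave 8 lower and 1 higher and a median of -0.35, and over all alternatives 2 to 9 were lower. The interaction of Atf3, a stress-induced repressor, was -2.35 (SE 0.43), and -2.05 without SSD-fed WT mouse 1. Atf3 was named for this value, and the median interaction of the list was -0.49, with 4 of 19 above 0. On NCD 1 of 18 targets, Trib3, was called, 0.93 higher in Klrk1-/- livers, beside 6.41% of all genes higher and 6.66% lower.

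**Figure D4:**
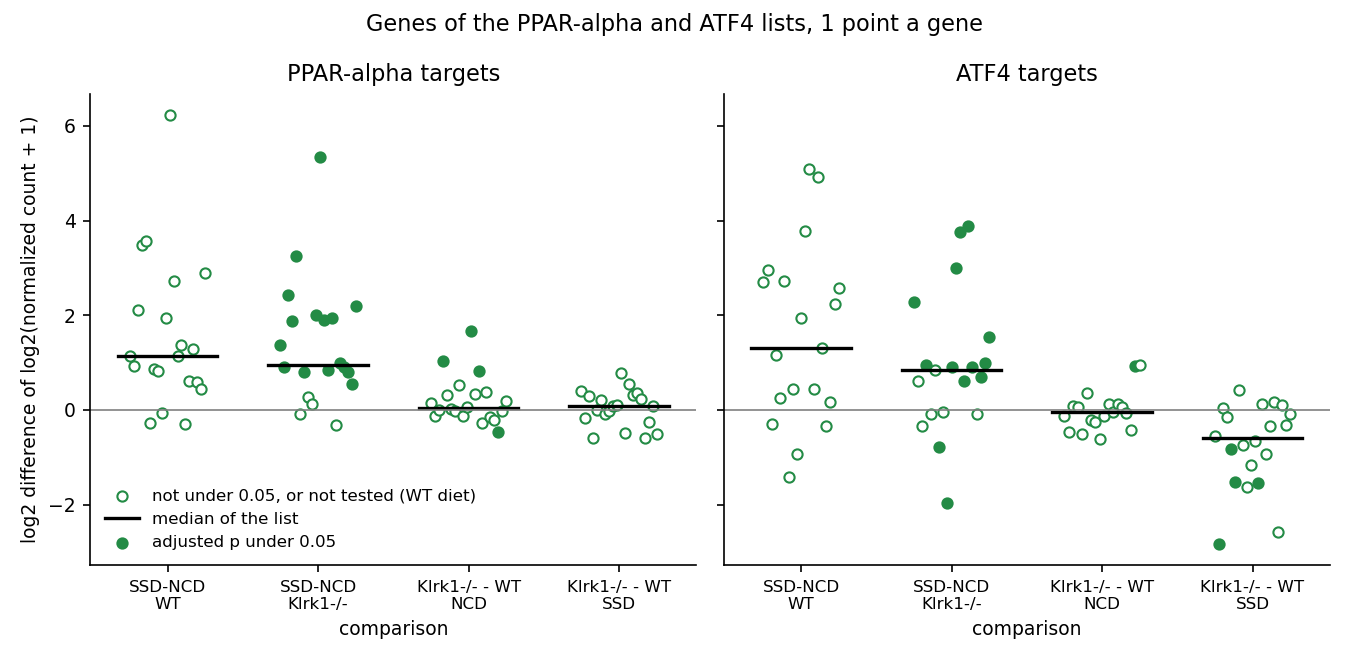
Log2 differences of the genes of the PPAR-alpha list (left) and the ATF4 list (right) in 4 comparisons, 1 point a gene, filled at an adjusted p under 0.05 except for the WT diet difference, which was not tested; the line is the median of the list. Both medians lie above 0 for the diet comparisons (0.84 to 1.32), and for genotype on SSD they are 0.09 for PPAR-alpha and -0.60 for ATF4 targets.

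Of the 12 insulin and fasting responsive genes, read beside Igfbp1 and Angptl8, 1 was higher and 5 lower in NCD-fed Klrk1-/- livers, beside 6.41% and 6.66% of all genes, and 1 to 3 were higher and 2 to 6 lower over all settings. Ppargc1a, a coactivator of gluconeogenesis, rose by 1.28 (SE 0.18, limma adjusted p = 0.00121), and Irs2 and Irs1, substrates of the insulin receptor, fell by 0.83 and 0.80 (0.00269 and 0.0219). Of 16 ChREBP targets, 5 were higher and 5 lower with SSD in Klrk1-/- mice, beside 13.4% and 16% of all genes, and 2 to 8 were higher and 4 to 5 lower over all settings, with Thrsp (-4.55), Acly (-1.92) and Fasn (-1.85), genes of lipid synthesis, changing most.

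The genes whose pattern over the 16 mice was most like that of Fgf21 were found by the root mean square difference of centred log2 values among 13067 genes. They were Rad51b (0.99), Cyp4a14 (1.09) and Phgdh (1.24), beside 3.34 for the spread of Fgf21 around its own mean. Rad51b averaged 8.71 and 489 on NCD and SSD in WT mice and 24.6 and 622 in Klrk1-/- mice. For Gdf15 the nearest genes were Gm37795 (0.48), Egr1 (0.51) and Map3k6 (0.54), beside an own spread of 1.12. Egr1, an immediate early transcription factor, averaged 219.6 and 1105 on NCD and SSD in WT mice and 744 and 788 in Klrk1-/- mice. These distances describe 16 mice in 4 groups and carry no test.

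Markers of other liver cells were read in the same fits. In SSD-fed WT mice the 6 Kupffer cell and macrophage markers summed to 3437 to 6728, against 2724 to 2949 on NCD, and in Klrk1-/- mice to 2827 to 3544 against 2420 to 3021. The recruited macrophage markers summed to 2092 to 6886 against 1384 to 3124 in WT mice and to 2118 to 2371 against 1321 to 1679 in Klrk1-/- mice, and the stellate cell markers to 4731 to 15806 against 3928 to 5120 and to 5953 to 7053 against 4069 to 5389. Between diets in Klrk1-/- mice, 1 of 6 Kupffer cell, 4 of 6 recruited macrophage, 3 of 6 stellate cell and 1 of 5 sinusoidal endothelium markers passed higher and none of these lower, and 4 of 7 hepatocyte markers passed lower, beside 13.4% higher and 16% lower of all genes. On SSD, 2 of 6 Kupffer cell markers passed lower in Klrk1-/- than in WT mice. Of the 6 recruited macrophage and 6 stellate cell markers 0 did in limma, beside 1.68% of all genes. Still, Gpnmb, Trem2, Ccr2 and Itgax of the recruited macrophage list were lower in every SSD-fed Klrk1-/- mouse than in any SSD-fed WT mouse. Gpnmb read 15.4 to 56.98 in Klrk1-/- and 116.75 to 1613.5 in WT mice, and Trem2 26.5 to 52.15 and 61.2 to 445. Ccr2 read 31.87 to 47.999 and 65.3 to 284, and Itgax 35.1 to 42.5 and 50.6 to 327. Spp1 and Cd9 overlapped between genotypes, and 17.9% of all genes did not. On NCD, 1 of 6 Kupffer cell and 1 of 4 bile duct markers passed lower in Klrk1-/- mice and 1 of 5 sinusoidal endothelium markers higher. Of the 7 hepatocyte and 6 stellate cell markers 0 passed there, beside 6.41% higher and 6.66% lower of all genes. Cidec, on the adipocyte list but made also by fat-laden hepatocytes, read 519 to 1407 in SSD-fed WT and 171 to 231 in SSD-fed Klrk1-/- mice, against 9.12 to 48.3 on NCD. The part of these shifts in the values of the hepatokine genes was not tested.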

How the data were processed

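Per the labels and the study's methods, total RNA of whole liver was sequenced as single 100-base reads, checked with FastQC, aligned to GRCm39 with STAR, counted per gene with FeatureCounts on GENCODE and compared with DESeq2; the labels and the methods name different TruSeq kits. The authors deposited a signal per gene and library, the normalized count, which is the count divided by 1 factor per library, and how the factors were set is not given in the sources used here. The deposited GC fraction and length of each gene were used as gene properties.

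Members and gene lists were chosen with earlier results of these data known. The text names the 9 members, the 3 genes nearest in pattern to Fgf21 and to Gdf15, up to 3 genes with the largest change past the test from each list and comparison, receptors, partners and regulators of members, and Klrk1; Cebpb, Cth and Ddit4 were named after their values were seen. Replicate libraries differed beyond sampling noise (chi-square 13.5 to 95.6 per gene over 25 pairs).

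Log2(normalized count + 1) of genes with a mean of at least 10 in the mice of a fit entered limma 3.58.1 (R 4.3.3) with a variance trend, and p-values were adjusted over all genes by Benjamini and Hochberg, with 0.05 as the threshold. On this scale the fold of a gene with few reads comes out too small. The interaction had been planned as a test; after its results were seen it was kept as a description, because it contains the contrast by which the members were chosen. All 9 members passed the filter in each fit. Whole reads were recovered by dividing by the smallest value of a library (100% whole within 0.01) and entered edgeR 4.0.16 and DESeq2 1.42.0 as alternatives. The scripts were tested on simulated data. Intervals and the floor of 3 reads cover counting error or the spread between mice only. For symbols shared by more than 1 gene (22 names), the gene with the higher mean was used. Promoter windows are RefSeq entries of GRCm38.p6, an earlier build than that of the counted genes, and overlapping genes were looked up in GENCODE.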

Additional observations from a re-analysis of the deposited data

Results flagged for a closer look

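Among 27 groups of 4 or 5 mice tested by Dixon's ratio, in which chance marks about 1 in 20, a mouse stood apart in 2. NCD-fed WT mouse 3 was low for Angptl8, at 508.4 normalized counts against 676 to 709 in the others, and NCD-fed WT mouse 2 was low for Lect2, at 1943 against 2246 to 2294. The groups of 3 SSD-fed Klrk1-/- mice were not tested in this way. For Gdf15 the diet effect of Klrk1-/- mice minus that of WT mice was -2.77 on the log2 scale. This difference was picked out by its interaction term in limma, which subtracts the WT diet effect on which the members were chosen, and so it carries no test that is independent of that choice. The diet difference within Klrk1-/- mice, which does not use the WT mice, was 0.05 (95% confidence interval -0.35 to 0.46).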

How the results depend on the processing

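In WT mice the description of the diet effect kept its direction for Fgf21, Gdf15, Igfbp1, Inhbe, Angptl4, Angptl8 and Fetub under each of 20 alternatives. For SSD against NCD in Klrk1-/- mice, 4 members passed; a fold limit of 1.5 or 2 left 2, and leaving out a mouse gave 3 to 5. Gdf15 turned to -0.11 without NCD-fed mouse 2 and to -0.11 without SSD-fed mouse 2, and Ahsg to 0.087 with equal totals and 0.532 with quantile normalization. For Klrk1-/- against WT on SSD, 0 members passed; 2 did with equal totals, 1 with quantile normalization, 4 in DESeq2, 3 with all 4 groups in 1 fit, and 0 to 3 when a mouse was left out. Lect2 turned there to -0.085 with equal totals and -0.009 with quantile normalization and ran from -0.05 (without Klrk1-/- mouse 1) to 0.138 (without Klrk1-/- mouse 3) when a mouse was left out, being -0.01 without WT mouse 5. Ahsg turned to -0.031 with equal totals and ran from -0.016 (without WT mouse 2) to 0.202 (without WT mouse 1). On NCD, 4 members passed, and 3 to 5 when a mouse was left out. The median interaction of the 9 members, a description, was -0.40 and ran from -0.64 to -0.23 when a mouse was left out. The cause of these moves was not tested.

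Same-numbered mice of the groups compared did not deviate together throughout (correlations of -0.03 to 0.15 between diets in Klrk1-/- mice, -0.02 to 0.24 between genotypes on SSD, -0.10 to 0.08 on NCD, and -0.15 to -0.04 between diets in WT mice), and the best partner was the own number for 4 of 6, 4 of 6, 1 of 6 and 0 of 8 mice, so the numbers were not taken to pair them. With the replicate number as a block, 3 members passed between diets in Klrk1-/- mice (without Lect2), 2 between genotypes on SSD (Fgf21 and Gdf15), and 5 on NCD, the median interaction was -0.25, and Lect2 on SSD turned to -0.06.

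Over all genes, calls ran from 704 to 5634 between diets in Klrk1-/- mice (3790 in the fit reported), 45 to 1221 between genotypes on SSD (381), 219 to 2357 on NCD (1679), 37 to 460 for the interaction (115) and 1179 to 7035 between diets in WT mice (4568). Depth limits Fgf21 on NCD most, where it rests on 3 to 41 reads a mouse.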

Other observations

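The genes nearest in pattern to the other members, named here after their values were seen, are given as values without a test. For Angptl8 they were Sco2 (root mean square difference 0.44), Spry4 (0.45) and Tymp (0.46), beside an own spread of 0.81. Sco2, a mitochondrial copper chaperone, averaged 2134 and 2455 on NCD and SSD in WT livers and 6067 and 6090 in Klrk1-/- livers, and Tymp, thymidine phosphorylase, averaged 2271 and 2739 in WT and 7334 and 7573 in Klrk1-/- livers. For Fetub they were Slc22a18 (0.10), Kng1 (0.10) and Med29 (0.12), beside an own spread of 0.35. For Inhbe the nearest was Mamdc2 (0.19, own spread 0.68) and for Igfbp1 it was Rgs1 (0.48, own spread 0.99), which averaged 29.8 and 81.6 in WT and 12.1 and 13.7 in Klrk1-/- livers.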
